A study of Mus musculus with 13 samples.

Results

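Potassium channel genes were followed in the cerebellum of newborn, juvenile and young adult mice with and without Sam68, a splicing regulator that binds RNA and is the product of Khdrbs1. The set was every gene row whose symbol starts with Kcn, which gave 93 of the 22667 gene rows of the expression table, and every splicing event of those genes, which gave 742 of the 253155 events kept from the splicing table. The 93 rows carry 92 symbols, since Kcnh8 is listed under 2 gene identifiers. Levels were deposited as cRPKM, a read density per kilobase that is corrected for mappable length and library size, and exon use as PSI, the percent of transcripts that include the exon.

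The 13 libraries were made from total RNA of whole cerebella of C57BL/6 mice. The wild-type groups were postnatal day 1 (P1, 2 libraries), P10 (2 libraries) and P30 (3 libraries). The Sam68 knockout groups were P1 and P10, with 3 libraries each. The labels do not name the animal behind each library, so the p-values measure only the spread between these libraries, which may be technical. The labels give the knockout as Sam68 ko, with no allele named.

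Wild-type libraries held Khdrbs1 at 56.5 and 74.4 cRPKM on P1, at 61.2 and 56.2 on P10, and at 31.4, 29.5 and 36.8 on P30. In the knockout it stood at 5.42, 4.22 and 8.5 cRPKM at P1 and at 2.06, 1.28 and 3.59 at P10, so every library matched the genotype in its label. These values do not check the ages. In the splicing table, the inclusion and exclusion reads of simple exon events summed to 7.83 to 13.66 M per library. A read can count in several events of this sum, and other event types are left out. The same sums per gene are called junction reads below. The expression table rested on a number of reads that was roughly estimated at 0.09 to 3.76 M per library. Of the 93 Kcn rows, 15 to 18 were listed at 0 in each of the 8 deeper libraries. In the 5 libraries under 0.5 M reads (wild-type P10 library 5, knockout P1 libraries 13 and 15, knockout P10 libraries 11 and 12), 29 to 47 rows were listed at 0.

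Potassium channels let potassium leave the cell and so set the resting voltage, end each action potential and pace repetitive firing. Voltage-gated pores are built from 4 subunits, and auxiliary subunits that do not conduct by themselves change their gating and traffic. In the cerebellum, fast Kv3 channels let Purkinje and granule cells fire at high rates, Kv1 channels restrain the axons and terminals of basket cells, and Kir4.1 in glia takes up the potassium that neurons release. Many of these genes also change the channel through alternative exons, and the BK channel gene Kcnma1 is the classic case.

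Exons with large changes between ages are shown first, since the splicing results below refer to them. Each is printed 5′ to 3′ as in the GENCODE M21 transcripts, with the exon in capitals and 15 bases of each neighbouring exon in lower case. Positions are mm9, the build of the deposited tables. All capitals shown are coding in that annotation. Kcnma1 lies on the minus strand of chr14, and the first exon below is 12 nt at chr14:24268422-24268433, the second 9 nt at chr14:24251455-24251463, the third 174 nt at chr14:24244789-24244962 and the fourth 29 nt at chr14:24125947-24125975.
Kcnma1 12 nt exon: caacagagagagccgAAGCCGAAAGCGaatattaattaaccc
Kcnma1 9 nt exon: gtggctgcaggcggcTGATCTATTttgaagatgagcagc
Kcnma1 174 nt exon: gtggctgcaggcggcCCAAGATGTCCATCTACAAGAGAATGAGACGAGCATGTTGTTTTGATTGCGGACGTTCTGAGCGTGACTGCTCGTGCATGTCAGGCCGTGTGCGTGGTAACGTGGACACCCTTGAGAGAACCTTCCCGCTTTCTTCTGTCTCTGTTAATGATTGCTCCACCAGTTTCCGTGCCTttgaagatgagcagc
Kcnma1 29 nt exon: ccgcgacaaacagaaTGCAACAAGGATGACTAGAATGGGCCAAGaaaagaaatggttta
The 9 nt and 174 nt exons have the same neighbours, so they are different insertions at 1 splice junction of the channel's cytoplasmic tail. The 174 nt insertion is the stress-axis regulated exon (STREX).

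For the other channels, 4 exons are printed, from the Erg-family subunit Kcnh7 (21 nt, chr2:62683811-62683831, minus strand), the Kv1 beta subunit Kcnab2 (42 nt, chr4:151808891-151808932, minus strand), the A-type subunit Kcnd3 (57 nt, chr3:105469880-105469936, plus strand) and the calcium-binding Kv4 partner Kcnip4 (102 nt, chr5:48900898-48900999, minus strand).
Kcnh7 21 nt exon: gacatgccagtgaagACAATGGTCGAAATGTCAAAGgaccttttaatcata
Kcnab2 42 nt exon: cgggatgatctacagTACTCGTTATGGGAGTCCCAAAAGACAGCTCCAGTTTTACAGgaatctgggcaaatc
Kcnd3 57 nt exon: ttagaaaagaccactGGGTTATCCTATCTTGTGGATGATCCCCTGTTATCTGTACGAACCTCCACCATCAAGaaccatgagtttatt
Kcnip4 102 nt exon: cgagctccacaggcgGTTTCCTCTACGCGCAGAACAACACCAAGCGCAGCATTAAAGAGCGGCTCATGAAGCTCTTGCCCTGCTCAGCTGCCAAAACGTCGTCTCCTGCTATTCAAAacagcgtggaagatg

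Of the 93 Kcn rows, 71 reached a group mean of 1 cRPKM and were tested, 22 were not, and 4 were at 0 in every library. Between wild-type P1 and P30, 21 of the 71 rose (29.6%) and 10 fell (14.1%), against 9.66% and 15.8% of the 14063 genes tested. Calls are at an adjusted p below 0.05 in limma on log2(cRPKM + 1), adjusted by Benjamini-Hochberg over all genes. The median change of the tested Kcn rows was -0.05, beside -0.13 for all genes. From P1 to P10, 6 rose (8.45%) and 1 fell (1.41%), against backgrounds of 2.2% and 1.85%. From P10 to P30, 13 rose (18.3%) and 4 fell (5.63%), against 5.02% and 9.73%. Without P10 library 6, the deeper of that pair, the P10 to P30 rises numbered 5; Kcng4, Kcnd2 and Kcnt1 were among those kept, and Kcnc1 had an adjusted p of 0.0509. From P1 to P10, Kcna1 and Kcng4 kept their call in all 4 fits that left out a library, Kcnk1 and Kcnj10 in 1 and Kcnj3 in 0. These 3 comparisons share wild-type libraries with each other and are not independent. The number of members with a mean above 10 cRPKM was 18 at P1, 26 at P10 and 29 at P30.

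**Figure D1:**
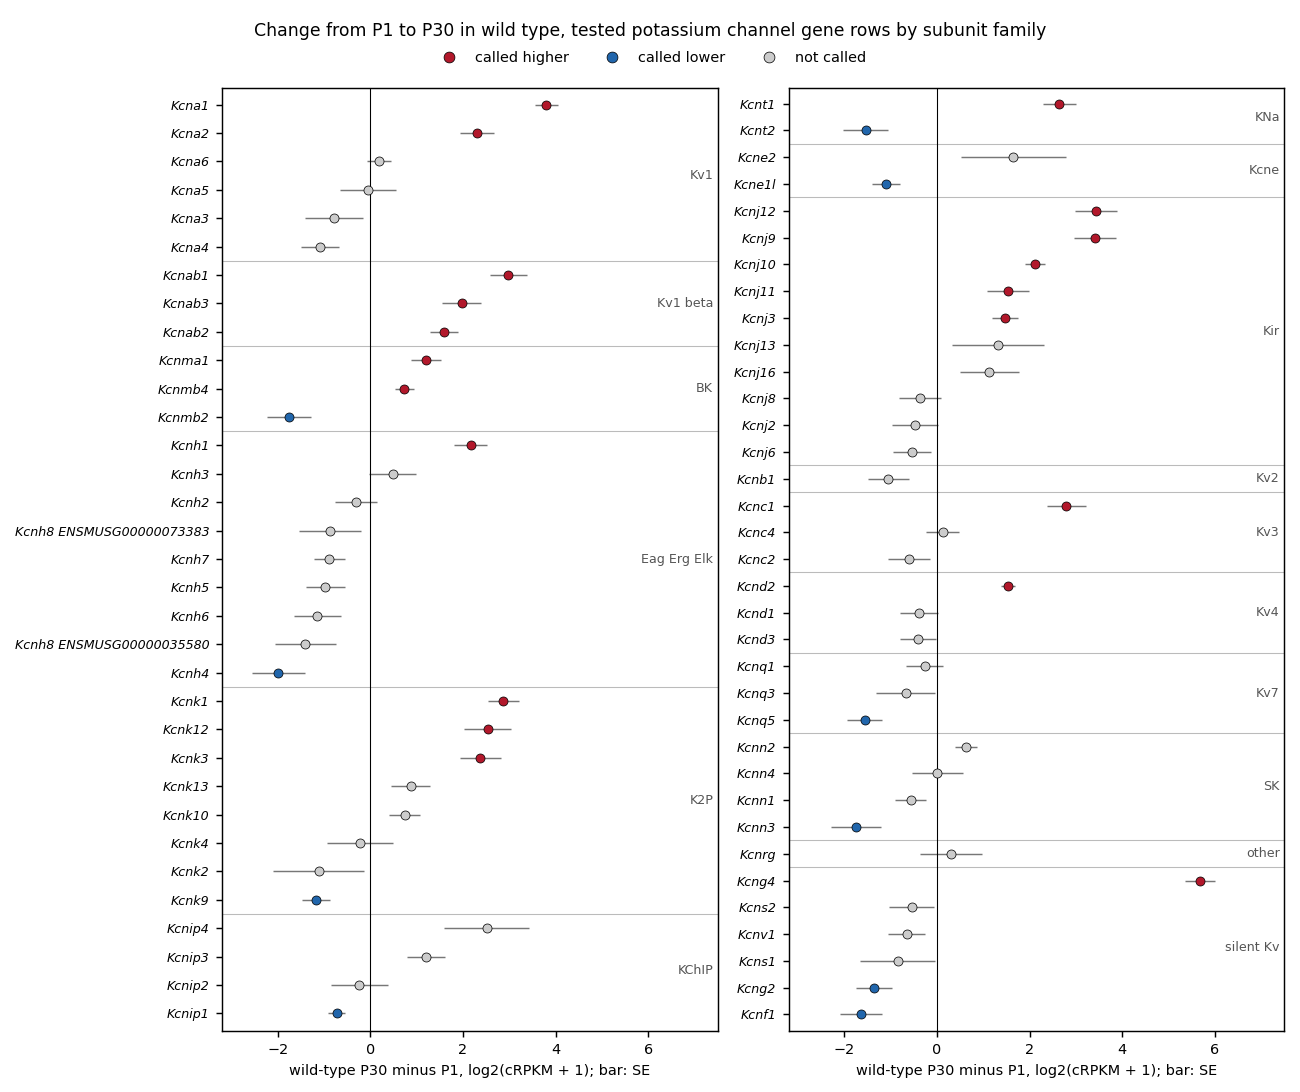
Difference between wild-type P30 and P1 for 68 of the 71 tested potassium channel gene rows, on the log2(cRPKM + 1) scale (x axis, with the standard error as a bar), ordered by subunit family on the y axis. Red points were called higher (20 of those shown), blue points lower (10) and grey points were not called; Kcng4 and Kcna1 lie farthest to the right.

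Kcnc1 encodes a Kv3 pore, and Kcng4 encodes a silent Kv6 subunit that conducts only when joined with another pore subunit. Kcng4 was at 0.17 and 0 cRPKM at P1, 10.5 and 7.31 at P10, and 58.3, 55.2 and 50.6 at P30. No group overlapped its neighbour in age, and the rise from P1 to P30 was the largest of the tested members, 5.68 on the log2 scale (SE 0.33, limma adjusted p = 3.16e-07).

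Kcnc1 moved mainly after P10. Its levels were 20.9 and 22.2 cRPKM at P1, 36.9 and 29.8 at P10, and 158, 164 and 142 at P30. The rise from P1 to P30 was 2.79 (SE 0.42, limma adjusted p = 0.000379), and that from P10 to P30 was 2.19 (adjusted p = 0.00404), while the P10 against P1 difference was not called. Kcnc4 ranged from 8.37 to 15.3 cRPKM in wild type and Kcnc2 from 0 to 1.92, and neither was called between wild-type ages.

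The Kv1 family changed through a pair of its pores and all of its beta subunits. Kcna1, the Kv1.1 pore of axons and terminals, was at 3.35 and 4.26 cRPKM at P1, 33.6 and 24.6 at P10, and 63.3, 66.6 and 66.5 at P30. It rose by 2.64 from P1 to P10 (SE 0.27, limma adjusted p = 0.000228) and by 3.80 from P1 to P30 (SE 0.25, adjusted p = 6.84e-07). Kcna2, its Kv1.2 partner, was at 7.12 and 9.12 cRPKM at P1, 24.0 and 23.1 at P10, and 43.9, 56.0 and 33.5 at P30. Groups of successive ages did not overlap, and the P30 against P1 rise was 2.30 (SE 0.37, limma adjusted p = 0.000619), while the P10 against P1 difference of 1.44 was not called (adjusted p = 0.0737).

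Kcnab1, Kcnab2 and Kcnab3 encode the beta subunits that sit beneath Kv1 pores and speed their inactivation or carry them to the membrane. Kcnab1 was at 6.22 and 4.05 cRPKM at P1, 16.8 and 14.1 at P10, and 48.2, 48.5 and 43.6 at P30, with a P30 against P1 rise of 2.98 (limma adjusted p = 0.000136). Kcnab3 rose by 1.97 and Kcnab2 by 1.59 over the same interval. Of the 6 tested Kv1 pores only Kcna1 and Kcna2 were called: Kcna6 ranged from 10.03 to 20.5 cRPKM over the wild-type libraries, and Kcna4 went from 3.8 and 3.09 at P1 to 1.71, 0.67 and 1.04 at P30 without a call.

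**Figure D2:**
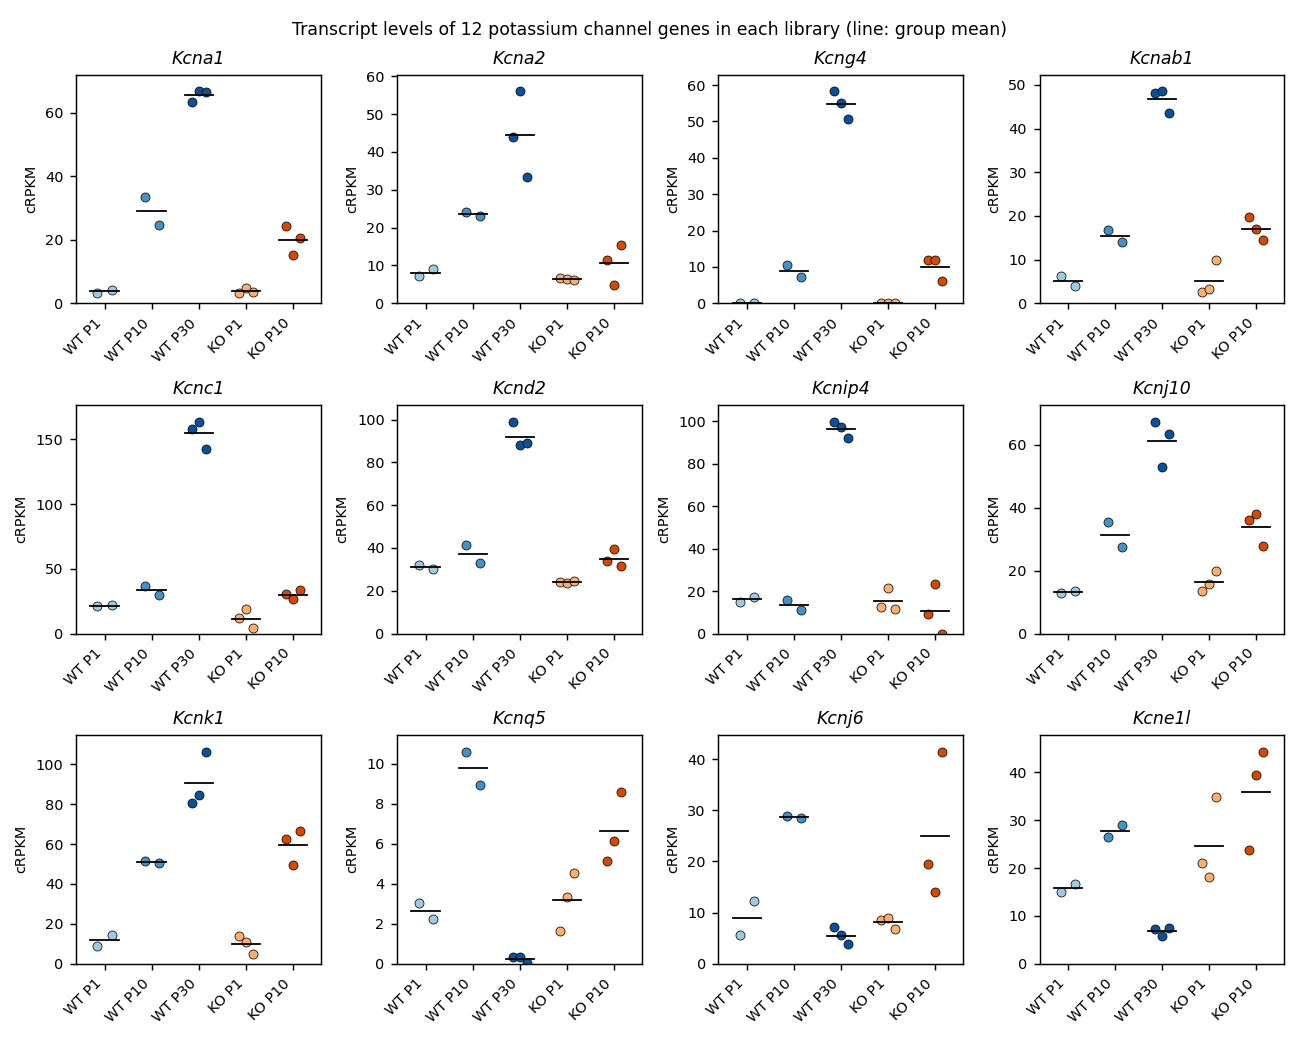
Level of selected potassium channel genes (y axis, cRPKM) in each library (points) by group, with the group mean as a line. Kcna1 and Kcnab1 are higher at each later wild-type age without overlap, and the knockout libraries at P10 lie below the wild-type P10 libraries for Kcna2 and just below them for Kcna1; neither was called between genotypes.

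A list of 14 genes of the Kv1 complex (scaffolds, LGI ligands, their ADAM receptors and juxtaparanodal adhesion proteins) had 10 rises and no fall from P1 to P30 (9.66% and 15.8% of all genes). The largest were in Lgi4 (3.94), Lgi3 (3.15), Adam11 (2.59) and Lgi1 (2.03), all secreted ligands or receptors of the LGI system. Cntnap2, which anchors Kv1 beside the node, differed by -0.75 and was not called (limma adjusted p = 0.0557). The P10 against P1 comparison called 2 of the 14 higher (2.2% of all genes), and P30 against P10 called 7 higher and 1 lower (5.02% and 9.73% of all genes). This list and the partner and marker lists below were chosen with earlier results of these data known. Their shares beside all genes are therefore descriptive and are not independent support.

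A-type currents run through Kv4 pores with KChIP and DPP partners. Kcnd2, the Kv4.2 pore of granule cell dendrites, was at 32.0 and 30.1 cRPKM at P1, 41.5 and 32.9 at P10, and 99.0, 88.3 and 88.9 at P30. Its rise of 1.54 from P1 to P30 (SE 0.15, limma adjusted p = 1.93e-05) lay almost wholly after P10, with 1.29 from P10 to P30 (adjusted p = 0.000163). Kcnd3, the Kv4.3 pore, varied from 10.8 to 29.7 cRPKM in wild type and was not called. Dpp10 rose by 1.02 and Dpp6 differed by 0.32 without a call.

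Among the KChIP genes, Kcnip1 was at 51.9 and 40.6 cRPKM at P1, 31.5 and 32.8 at P10 and 24.9, 28.5 and 28.7 at P30, and fell by 0.73 on the log2 scale (limma adjusted p = 0.00929). Kcnip4 was at 15.1 and 17.1 at P1, 15.6 and 11.3 at P10, and 99.8, 97.3 and 92.2 at P30, a difference of 2.51 (SE 0.92) that was not called (limma adjusted p = 0.0662). The gene was listed at 0 in knockout P10 library 12 and at 23.4 in library 11. Without the 5 shallow libraries, chosen after depth was seen, the adjusted p of the same difference was 0.000367, and in junction reads the difference was 2.38 (adjusted p = 7.78e-09).

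Inward rectifier (Kir) genes rose in 5 of 10 tested and fell in none between P1 and P30, where 9.66% of all genes rose and 15.8% fell. Kcnj10, the glial Kir4.1, was at 12.8 and 13.6 cRPKM at P1, 35.5 and 27.4 at P10, and 67.4, 52.9 and 63.3 at P30, with a rise of 2.12 (SE 0.21, limma adjusted p = 1.91e-05). The G protein-gated subunit Kcnj9 went from 4.44 and 2.41 cRPKM at P1 to 44.5, 44.3 and 45.2 at P30 (3.41, adjusted p = 0.000175), and Kcnj12 from 1.66 and 2.69 to 32.5, 31.7 and 34.4 (3.43, adjusted p = 0.000136). Kcnj3, another G protein-gated subunit, was near its P30 levels by P10: 8.18 and 9.52 at P1, 22.4 and 25.8 at P10, and 24.5, 25.8 and 27.7 at P30. Kcnj11, the KATP pore, rose by 1.53 and its sulfonylurea receptor Abcc8 by 1.57.

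Kcnj6, the GIRK2 pore, had a peak at P10. It was at 5.53 and 12.2 cRPKM at P1, 28.8 and 28.5 at P10, and 7.12, 5.64 and 3.79 at P30, a fall of 2.22 from P10 to P30 (limma adjusted p = 0.00393). Kcnq5, an M-current pore, and Kcne1l, an auxiliary subunit of the Kcne family, had the same shape. Kcnq5 was at 3.05 and 2.24 at P1, 10.6 and 8.93 at P10 and 0.33, 0.32 and 0.05 at P30, and fell by 3.13 from P10 to P30 (adjusted p = 0.000191). Kcne1l was at 14.98 and 16.8 at P1, 26.4 and 29.1 at P10, and 7.23, 5.73 and 7.49 at P30, and fell by 1.89 from P10 to P30 (adjusted p = 0.00134). None of the 3 was called between P1 and P10.

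A list of 6 ankyrin, spectrin and adhesion genes was drawn up around the anchoring of Kv7 channels at the axon initial segment, and 4 were tested. From P1 to P30 Ank2 rose by 0.91 and Nfasc by 0.58, Nrcam fell by 0.80, and 1 was not called. Of all genes, 9.66% rose and 15.8% fell. Not every gene of the list is known to hold Kv7 channels itself.

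Two-pore (K2P) channels carry the leak current that sets the resting voltage. Kcnk1, the TWIK1 pore, was at 9.14 and 14.2 cRPKM at P1, 51.5 and 50.7 at P10, and 80.6, 84.4 and 106 at P30, with a rise of 2.87 (SE 0.34, limma adjusted p = 7.29e-05). Kcnk3 and Kcnk9 encode the acid-sensitive TASK1 and TASK3 pores and were called in opposite directions. Kcnk3 went from 4.85 and 2.78 at P1 to 23.5, 22.0 and 24.3 at P30 (2.37, adjusted p = 0.00164), and Kcnk9 from 21.4 and 23.1 to 8.15, 13.9 and 7.09 (-1.17, adjusted p = 0.0119). The Kcnk9 call was kept in 2 of 5 fits that left out a library (adjusted p up to 0.0869, without P1 library 9), and the Kcnk3 call in all 5. Kcnk9 was the higher of the pair in both P1 libraries and Kcnk3 in all 3 P30 libraries. Kcnk12, the THIK2 pore, rose by 2.53.

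**Figure D3:**
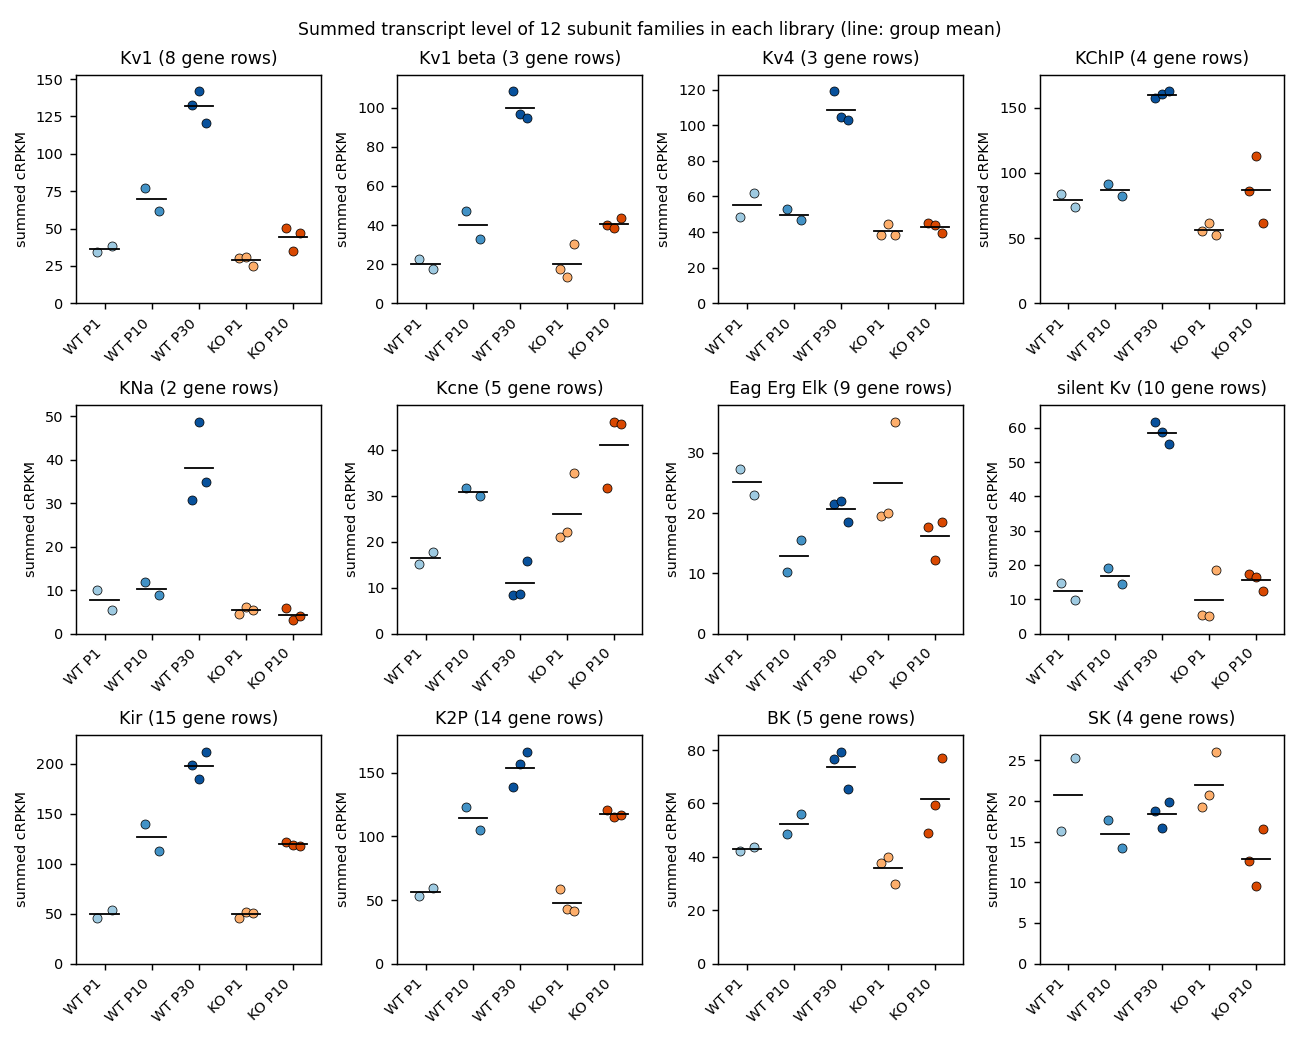
Summed level of 12 potassium channel subunit families (y axis, cRPKM) in each library (points) by group, with the group mean as a line. Kv1 and Kir sums are higher at each later wild-type age without overlap, while the sums of SK at P30 lie between 16.6 and 19.8, inside the range of the P1 libraries.

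Calcium- and sodium-activated channels changed by subunit. Kcnma1, the BK pore, rose from 12.4 and 10.3 cRPKM at P1 to 30.5, 28.1 and 23.7 at P30 (1.20, limma adjusted p = 0.0165), and its neuronal beta subunit Kcnmb4 from 23.6 and 30.8 to 45.8, 50.3 and 41.0 (0.73, adjusted p = 0.0234). Kcnmb2, the beta subunit that inactivates BK, fell from 5.36 and 2.03 to 0.35, 0.29 and 0.26 (-1.76, adjusted p = 0.0169). The sodium-activated pair was called in opposite directions. Kcnt1 rose from 7.57 and 3.4 to 30.6, 48.6 and 34.8 (2.64, limma adjusted p = 0.000189). Kcnt2 fell from 2.33 and 1.99 to 0, 0.07 and 0.19 (-1.54, adjusted p = 0.0334), a call lost in all 5 fits that left out a library. Of the 4 small-conductance (SK) genes only Kcnn3 was called, with a fall of 1.74. Kcnn2, the SK2 pore, ranged from 8.04 to 16.5 cRPKM in wild type.

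Members of low level also fell. Kcnh4 (Elk family) differed by -1.99, and the silent subunits Kcnf1 and Kcng2 by -1.64 and -1.37. Kcnh1, the Eag1 pore, rose from 1.56 and 0.84 cRPKM to 8.53, 9.16 and 8.34 (2.16, limma adjusted p = 0.000906). The number of falls between P1 and P30 was 2 without P1 library 8, 5 without P1 library 9, and 6, 4 and 4 without P30 libraries 1, 2 and 3. The number of rises was 18 to 20 in the same fits. Kcnh4 and Kcnt2 lost their call in all 5 and Kcnn3 in all but 1. Kcnf1, Kcng2 and Kcne1l kept it in 2, Kcnmb2 in 3, and Kcnq5 and Kcnip1 in 4. Of the rises, Kcnmb4 kept it in 2. The HCN channels, which carry the opposing inward current, split between P1 and P30. Of 5 tested genes of their list 2 rose, among them Hcn2 (1.16), and 2 fell, Hcn3 (-2.54) and Hcn4 (-2.46). The shares of all genes were 9.66% and 15.8%.

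Markers of cerebellar cell types also moved with age, and their calls stand beside 9.66% of all genes higher and 15.8% lower from P1 to P30. In bulk RNA, fewer cells of a type and less RNA per cell cannot be told apart. From P1 to P30 all 9 mature granule cell markers rose (summed level 236 to 323 cRPKM at P1 and 2160 to 2410 at P30), as did 8 of 9 tested Purkinje cell markers (164 to 298 and 1720 to 2060). Of 10 oligodendrocyte markers, 7 rose and 2 fell (174 to 187 and 3800 to 4730), and of 10 markers of Bergmann glia and astrocytes, 6 rose and 2 fell (1410 to 1520 and 1780 to 2290). Granule cell precursor markers fell in 7 of 10 (272 to 537 and 237 to 278). Of 9 tested markers of midbrain and caudal hindbrain, 5 fell, with summed levels of 32.5 to 50.0 at P1 and 6.81 to 11.2 at P30. At P30 Hoxa2, Hoxa5, Hoxb2, Hoxb3, Hoxb5 and Slc6a4 were listed at 0 in all 3 libraries. Their part in the changes of the channel genes was not tested.

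A choroid plexus marker list ranged from 4.69 to 1120 cRPKM between the wild-type P30 libraries. Kcnj13 (Kir7.1) and Kcne2, both known in that epithelium, ranged with it. At P30 Kcnj13 was at 0.35, 3.95 and 12.7 and Kcne2 at 0, 2.38 and 8.22, and neither was called in any comparison.

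In the knockout, the same ages P1 and P10 were compared. There 14 of the 71 members rose (19.7%) and 2 fell (2.82%), against 5.58% and 4.59% of all genes. In a fit of only these groups, 5 of 65 tested members rose and 0 fell. Knockout P1 libraries 13 and 15 and P10 libraries 11 and 12 are shallow. Kcng4 rose by 3.32, Kcnk1 by 2.58, Kcna1 by 2.10 and Kcnj10 by 1.01. In wild type over the same interval the changes were 3.18, 2.07, 2.64 and 1.18. Kcnip3, which encodes a calcium-binding KChIP, rose by 2.08 in the knockout, with 16.1, 10.7 and 3.93 cRPKM at P1 and 42.8, 54.1 and 29.9 at P10. Wild type had 13.8 and 15.6 at P1 and 36.1 and 36.2 at P10, without a call in cRPKM. In junction reads it was called in both, with 1.89 in the knockout and 1.38 in wild type (limma adjusted p = 8.24e-05). No member had a called difference between the age effects of the genotypes (background 0.0142% higher and 0% lower; 1 at an unadjusted p below 0.05, smallest limma adjusted p = 0.854).

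Between genotypes no potassium channel gene was called at either age. At P1, 8 of 71 members had an unadjusted p below 0.05 in limma and the smallest adjusted p was 0.536. At P10, 5 had one and the smallest adjusted p was 0.884. The share of all genes at that unadjusted threshold, or without overlap between groups, is not given here, so these counts have no background. Of all genes, 0.00711% were called higher and 0.0284% lower at P1, and 0% and 0.00711% at P10. The median difference of the members was -0.23 at P1, beside -0.04 for all genes, and -0.13 at P10, beside -0.03.

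Kcna1 at P1 was at 3.2, 4.93 and 3.52 cRPKM in the knockout, within or close to the wild-type range of 3.35 to 4.26, with a difference of 0.01 (SE 0.25). At P10 it was at 24.4, 15.3 and 20.4 in the knockout against 33.6 and 24.6, a difference of -0.52 (SE 0.25, limma adjusted p = 0.884). These groups did not overlap, by a margin of 24.4 against 24.6. Without the 5 shallow libraries 1 library of each group is left, at 24.4 and 24.6 (difference -0.01), and this pair has no replicate check. Kcna2 at P10 was at 11.5, 4.85 and 15.5 in the knockout against 24.0 and 23.1, so the groups did not overlap. The difference was -1.20 (SE 0.37, limma adjusted p = 0.884). It was -0.77 without knockout library 11, 1 of the 5 shallow libraries, and its adjusted p ran from 0.398 to 1 over the alternatives.

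The 8 members with an unadjusted limma p below 0.05 at P1, which did not include Kcna1 or Kcna2, were all lower in the knockout. They were picked by that p, and none was called. The share of all genes at that threshold and in that direction is not given here, so the shared direction has no background. Kcnk3 was at 0.77, 1.09 and 0 cRPKM against 4.85 and 2.78 (-1.60), Kcnc1 at 11.7, 18.9 and 3.9 against 20.9 and 22.2 (-1.07), and Kcnip1 at 26.9, 27.9 and 36.9 against 51.9 and 40.6 (-0.59). None of these groups overlapped, and the rest were Kcng2, Kcnmb2, Kcnc4, Kcnd2 and Kcns2. The midbrain and caudal hindbrain markers summed to 14 to 30 cRPKM in the knockout at P1 and 32.5 to 50.0 in wild type, with none of the 9 tested called. Knockout P1 library 15 had 12 of the 13 rows of that list at 0, and the granule cell genes Gabra6, Grin2c and Slc17a7 at 0. It is the shallowest library, at an estimated 0.09 M reads with 51.2% of all gene rows at 0, so these zeros do not show absence. Knockout P1 library 13 is shallow too, at 0.33 M. The part of depth and of these markers in the P1 differences was not tested.

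At P10 the members with an unadjusted limma p below 0.05, besides Kcna2, were Kcnn2 (-0.64), Kcnt2 (-1.23), Kcnt1 (-0.89) and Kcnmb4, which was higher by 0.53. Kcnt1 was at 5.1, 3.24 and 3.97 cRPKM in the knockout against 10.2 and 6.82, and Kcnmb4 at 38.4, 50.1 and 57.8 against 27.8 and 38.9, where the groups overlapped. No gene of the 7 partner lists was called between genotypes at P1 or P10.

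More splicing events of the channel transcripts were called between ages than between genotypes, and the sizes of these effects were not compared by a test. Of 110 Kcn events tested between wild-type P1 and P30, 23 were called (20.9%) in 14 genes, against 9.91% of all 35556 events. An event was called at an adjusted p below 0.05 in limma on the log2 odds of inclusion and a difference of at least 10 points of PSI. From P1 to P10, 4 of 126 were called (3.17%, background 0.663%), and from P10 to P30, 9 of 117 (7.69%, background 2.94%). The P1 to P10 count was 0 without P10 library 5. In the knockout from P1 to P10, 5 of 131 were called (3.82%, background 0.862%).

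Over all comparisons 24 different Kcn events were called, of which 15 were exons, 8 were intron retention entries and 1 was an alternative splice site. Of the 15 exons, 11 had a length that is a multiple of 3 (73.3%), and 30 of the 54 tested Kcn exons did (55.6%). Over all genes these shares were 60.4% of called and 45.2% of tested exons. Exons of at most 27 nt made up 3 of the 15 (20%) and 8 of the 54 (14.8%), beside 10.3% of called and 4.7% of tested exons over all genes.

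The 4 alternative exons of Kcnma1 changed at different ages. The 12 nt exon was included at 73.1% and 61.8% at P1, 22.2% and 23.8% at P10, and 1.2%, 2.6% and 2.1% at P30 (70 to 491 reads per library). The difference from P1 was -44.4 points at P10 (limma adjusted p = 0.00696) and -65.4 points at P30 (adjusted p = 3.86e-07). The P30 call was kept in all 5 fits that left out a library and the P10 call in 2 of 4, with an adjusted p of 0.093 without P1 library 8. Between P10 and P30 the difference was -21.0 points, and its call was kept in all 5 such fits (limma adjusted p up to 0.00399). The 9 nt exon went the other way, from 0% and 24.7% at P1 to 79.7% and 80.0% at P10 and 95.6%, 95.7% and 92.8% at P30 (82.3 points, adjusted p = 0.000449). Its P1 libraries were far apart, and its P10 against P1 call was kept in 1 of 4 fits that left out a library.

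At the same junction the 174 nt STREX insertion fell from 20.8% and 15% at P1 to 4.7% and 2.4% at P10 and to 0.2%, 0.1% and 0.4% at P30 (-17.7 points, limma adjusted p = 0.000277). The 29 nt exon changed last. It stood at 9.5% and 2.7% at P1, 15.2% and 22.8% at P10, and 62.0%, 60.3% and 62.6% at P30, a rise of 55.5 points (adjusted p = 8.18e-05). Of this, 42.7 points came between P10 and P30 (adjusted p = 0.00992, and 0.104 without P10 library 5). Its length is not a multiple of 3, so its inclusion changes the reading frame that follows.

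**Figure D4:**
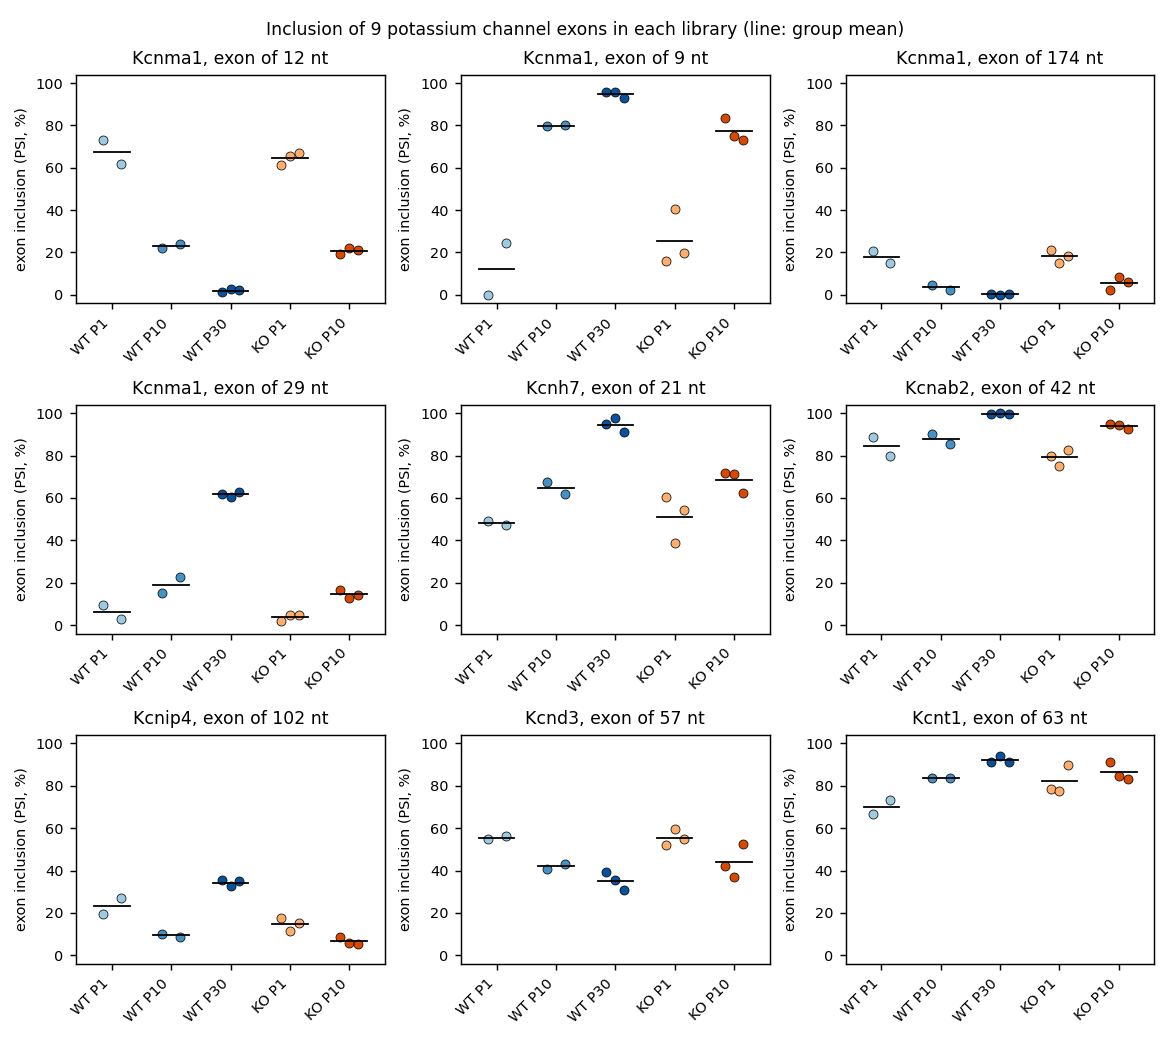
Inclusion of selected potassium channel exons (y axis, PSI in percent) in each library (points) by group, with the group mean as a line. The Kcnma1 12 nt exon falls from above 60 at P1 to below 3 at P30, the Kcnma1 9 nt exon rises from below 25 to above 92. For the 9 nt exon, 1 knockout P1 library stands at 40.6, above both wild-type P1 libraries.

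The Kcnh7 21 nt exon rose from 49.2% and 47.3% at P1 to 67.4% and 62.0% at P10 and 94.9%, 97.6% and 91.1% at P30 (46.3 points from P1, limma adjusted p = 0.000384). The Kcnab2 42 nt exon was high throughout and became almost constant, with 88.8% and 79.8% at P1, 90.2% and 85.3% at P10, and 99.5%, 100% and 99.5% at P30 (15.4 points, adjusted p = 2.55e-05).

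Other exons moved less or turned. The Kcnip4 102 nt exon was at 19.7% and 27% at P1, 10.2% and 8.8% at P10 and 35.3%, 32.5% and 35.0% at P30, a rise of 24.8 points between P10 and P30 (limma adjusted p = 0.0024). P10 was thus the lowest age in both P10 libraries, and the knockout P10 libraries were at 8.7%, 6.0% and 5.1%. The Kcnd3 57 nt exon went from 54.7% and 56.3% at P1 to 39.4%, 35.5% and 30.7% at P30 (-20.3 points, adjusted p = 0.0271). A 63 nt exon of Kcnt1, at chr2:25768175-25768237, rose from 66.9% and 73.1% to 91.3%, 94.2% and 91.3% (22.2 points, adjusted p = 0.00335).

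Among the intron entries, the 1925 nt intron of Kcnc1 was retained at 62.1% and 83.5% at P1, 42.0% and 49.8% at P10, and 11.6%, 25.1% and 16.7% at P30 (-55.0 points from P1, limma adjusted p = 0.00028), while the level of the gene rose. In Kcnk12 an intron entry of 50222 nt fell from 48.1% and 40.0% at P1 to 0.9%, 0.8% and 0.8% at P30. The P1 values rested on only 20 and 28 reads, and the P30 values on 170, 178 and 130. The gene itself was at 0.99 and 0.91 cRPKM at P1.

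Between genotypes, 1 of 136 Kcn events tested was called at P1 (0.735%, against 0.0238% of all events), and 13 had an unadjusted p below 0.05 in limma. The count was 0 to 1 when each library was left out in turn. It was 0 without wild-type P1 library 8 and 0 without knockout P1 library 13. At P10, 0 of 132 were called by limma (background 0.0304%), with 7 at an unadjusted p below 0.05 and a smallest adjusted p of 0.966. No share of all events at the unadjusted threshold is given here.

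The 12 nt, 9 nt and 174 nt exons of Kcnma1 were compared between genotypes. The Kcnma1 12 nt exon was at 61.5%, 65.7% and 67.1% in the knockout at P1 and 19.4%, 22.1% and 21.0% at P10, which differed from wild type by -2.7 and -2.2 points (log2 odds -0.19, SE 0.39 at P1). The 9 nt exon was at 16.1%, 40.6% and 19.8% in the knockout at P1 against 0% and 24.7%, and at 83.6%, 75.1% and 73.0% at P10 against 79.7% and 80.0%. The groups overlapped at both ages, and the differences were 13.1 and -2.6 points (log2 odds 2.76, SE 1.16 at P1, limma adjusted p = 1 at both ages). The 174 nt insertion was at 21.3%, 15.1% and 18.5% in the knockout at P1 and 2.5%, 8.2% and 6.0% at P10. Wild type had 20.8% and 15% at P1 and 4.7% and 2.4% at P10. None of these exons was called between genotypes at either age, with 2 wild-type libraries at each. No Kcn event had a called change of the genotype effect between ages (0 of 118 in limma, background 0%, 4 at an unadjusted p below 0.05, smallest adjusted p = 0.863).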

How the data were processed

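The authors deposited 2 tables for 13 libraries: expression as cRPKM, an RPKM corrected for mappable length per the file headers, and splicing as percent inclusion (PSI) with its reads per the file headers. Per the submitters' processing notes, FastQC and Trimmomatic were used and the build was mm9; the aligner is not given in the sources used here. Whether counting used strand is also not given, so overlapping antisense genes could share reads. Of 22667 gene rows, 21553 had values. From the 283765 events, 30610 were dropped: alternative splice sites that add no sequence.

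From these values, genes with a group mean of at least 1 cRPKM (14063) were tested as log2(cRPKM + 1), which understates changes of low genes. Events needed 10 or more reads in 2 or more libraries per compared group. Those with a mean PSI of 5 to 95 were tested as log2 odds with 0.5 added to the reads. Both used limma 3.58.1 in R 4.3.3, with 1 fit of the 5 groups, a trended prior and Benjamini-Hochberg adjustment within each comparison. The fits were tested on simulated data. Expression depth was a rough estimate. Each value was multiplied by the length of the longest GENCODE M21 transcript of its gene. The lowest peak in the distribution of these products was taken as 1 read.

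Members, partner lists and marker lists were chosen with earlier results of these data known. Genes named were Kcna1 and Kcna2, up to 12 called rises and falls, the 8 smallest p and the highest member of each family per comparison, and for events up to 12 calls and the 6 smallest p. Kcnj13, Kcne2 and Kcnip4 in depth, and the pairings of related genes, were described after their values were seen. Some other genes and events are not reported here and stayed in the counts. Exon sequences came from GENCODE M21 transcripts, matched by exon and flanking intron lengths within each gene, while positions are those of the deposited mm9 table. The alternatives were another pseudocount, no filter, quantile normalization, no trend, only the compared groups, junction reads, read weights, a 20-point threshold, each library left out, and the 5 shallow libraries left out.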

Additional observations from a re-analysis of the deposited data

How the results depend on the processing

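No paired analysis was possible because every library number is unique, so the groups share none. Among named results, none reversed: of 832 alternative values of called genes 706 kept the call and 126 lost it, and of 318 of called events 260 kept it and 58 lost it. Of 1355 values of genes not called, 33 became calls, and of 226 of events not called, 3 did. The counts of calls moved by over 1.5 times as follows, and the cause was not tested. From wild-type P1 to P10 (6 higher, 1 lower, 4 events), junction reads, which could test 40 Kcn genes, gave 11 higher and 11 lower, no low-value filter 2 lower, no trend 0 lower, only the groups compared 0 lower and 0 events, and leaving out the 5 shallow libraries (an alternative chosen after depth was seen, 69 genes tested, with 1 library left at wild-type P10, knockout P1 and knockout P10, each assumed to vary like the other groups) 3 lower. From P10 to P30 (13 higher, 4 lower), only the groups compared gave 21 higher and 8 lower, junction reads 11 lower, and leaving out the shallow libraries 20 higher and 7 lower. From P1 to P30 (10 lower, 23 events), a pseudocount of 0.1 gave 5 lower, only the groups compared 17, junction reads 17, leaving out the shallow libraries 18, and a 20-point threshold 15 events. In the knockout from P1 to P10 (14 higher, 2 lower, 5 events), only the groups compared gave 5 higher, 0 lower and 3 events, junction reads 8 lower, and leaving out the shallow libraries 7 higher and 1 lower. For knockout against wild type at P1 (0 lower, 1 event), no filter gave 1 lower, and a 20-point threshold, read weights and only the groups compared each gave 0 events. With each library left out in turn, P1 to P10 gave 3 to 4 higher, 0 lower and 0 to 3 events; P10 to P30 gave 5 to 11 higher, 3 to 4 lower and 4 to 10 events; P1 to P30 gave 18 to 20 higher, 2 to 6 lower and 16 to 22 events; and the knockout from P1 to P10 gave 10 to 15 higher, 2 to 4 lower and 3 to 8 events. Knockout against wild type at P1 gave 0 genes and 0 to 1 events. At P10 the genotype comparison and the change of the genotype effect gave 0. Below about 0.5 M reads, a listing at 0 does not show that a gene is absent.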
